A study of Homo sapiens with 45 samples.

Results

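Aminoacyl-tRNA synthetases are the enzymes that attach each amino acid to its tRNA, and the cell holds a cytosolic and a mitochondrial set of them, nearly all encoded by separate nuclear genes. The set described here is 38 genes of the 60676 in the count table, matched by symbol. It holds 19 cytosolic synthetase genes, whose symbols end in 1 or are FARSA and FARSB, and 16 mitochondrial synthetase genes, whose symbols end in 2. It also holds 3 genes, AIMP1, AIMP2 and EEF1E1, for scaffold proteins of the multi-tRNA synthetase complex, a particle that gathers several cytosolic synthetases. For 17 of the cytosolic genes the table used the older symbol without the final 1. The genes were taken by name and not by a cut on a measured value, but the list was drawn up with earlier results of these data known.

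RNA was sequenced from HAP1 cells, an adherent human line derived from the near-haploid leukaemia line KBM-7. The AAVS1 line, whose name is that of a locus commonly edited as a harmless control, served as the reference. The other genotypes were ZNF598 KO, RNF25 KO, GCN2 KO, the RNF25 GCN2 DKO, and eS31 K113R, a lysine-to-arginine change in the ribosomal protein eS31. Every genotype was sampled untreated and after 4 h in 5 uM azacytidine (azaC), a ribonucleoside that is built into RNA. AAVS1, RNF25 KO and GCN2 KO cells were also sampled after 4 h in 25 nM halofuginone (HF), an inhibitor of the prolyl-tRNA synthetase activity of EPRS1. All cells grew in the same serum-containing medium, and the labels used here do not say whether a line was 1 clone. Each of the 15 groups had 3 libraries. The titles call them biological replicates and do not say whether they came from separate cultures or days, so the p-values measure the spread between these libraries, part of which may be technical. Of the 3 untreated eS31 K113R libraries, only replicate 1 carries that genotype name in its title. The others carry another genotype name there and were placed by their described column name. Every comparison with untreated eS31 K113R cells depends on this placement.

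When a tRNA lacks its amino acid, the kinase GCN2 phosphorylates the translation initiation factor eIF2, which lowers overall translation and raises translation of the transcription factor ATF4. ATF4 drives genes for amino acid synthesis, amino acid transport and tRNA charging, a programme called the integrated stress response. Several cytosolic synthetase genes are often reported among its targets, and the mitochondrial ones mostly are not. GCN2 is also activated by stalled and collided ribosomes. RNF25 is a ubiquitin ligase that modifies eS31, and ZNF598 is a ubiquitin ligase that marks collided ribosomes.

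Libraries held 1135498 to 2478875 counts, and the 38 genes together took 0.337 to 0.637% of them. Of these genes 37 passed a filter on low counts, and VARS2, the mitochondrial valyl-tRNA synthetase, did not. It had 0 counts in all 45 libraries, which allows a level of up to 1.21 to 2.64 CPM (counts scaled to a fixed library total) in a library, from 3 counts of its total and for counting error only. VARS2 shares 22% of its exon bases with GTF2H4 on the same strand, and whether its reads were lost in the counting was not tested. EIF2AK4, the gene for GCN2, was lower in untreated GCN2 KO than in AAVS1 cells, at 21.95 against 43.96 CPM (log2 difference -0.998, SE 0.25, adjusted p = 0.0277, edgeR). In the RNF25 GCN2 DKO it stood at 39.56 CPM (-0.15 against AAVS1, adjusted p = 0.914). Against RNF25 KO cells EIF2AK4 in the DKO differed by -0.57 (SE 0.23), which did not pass either, so its transcript gives no check of that label. ZNF598 was at 37.19 CPM in ZNF598 KO and 62.55 CPM in AAVS1 cells (-0.74, adjusted p = 0.0631), and RNF25 had at most 7 counts in any library and was not tested. A pair of libraries stood apart in the dependence of their counts on gene GC content. In RNF25 KO azaC replicate 2 the log2 deviation from each gene's mean rose by 0.347 per 10 points of GC where the next library had 0.121, and this library also had the lowest share of mitochondrially encoded counts, 3.14%, against a median of 7.08%. In AAVS1 untreated replicate 2 it fell by 0.464 per 10 points, where the next library had -0.186. Results that rest on these libraries are given with and without them, and the part of GC content in them was not tested.

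In untreated AAVS1 cells the cytosolic synthetase genes were mostly expressed at a higher level than the mitochondrial ones. Per kilobase of exon, the median level was 32.1 CPM over the 19 cytosolic genes and 4.62 CPM over the 16 mitochondrial ones. Cytosolic levels ran from 4.47 for HARS1 (histidine) to 70.2 for RARS1 (arginine). Mitochondrial levels ran from 0 for VARS2 and 1.23 for TARS2 (threonine) to 28.3 for RARS2 (arginine), so the ranges overlapped. AIMP2, a scaffold of the complex, was highest of the 38 at 84.3 ± 4.75 (SD, n = 3). It shares 28.9% of its exon bases with EIF2AK1 on the opposite strand, and the strand setting of the counting is not given. RARS1, KARS1 (lysine, 69.4), TARS1 (threonine, 68.6) and NARS1 (asparagine, 67.8) followed AIMP2. The ranges of the 3 libraries overlapped between nearly all neighbours in the order, and did not below CARS1 (cysteine, 10.7 per kilobase) and between TARS2 and VARS2. These levels are per kilobase of all annotated exons of a gene merged, 10.0 kb for CARS1 and 7.85 kb for HARS1. A merged length can exceed that of the transcript expressed, so the comparison between genes depends on the annotation too. All CPM values below are not divided by length, and compare libraries for 1 gene.

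Promoter sequences are shown for the members that hold a run of letters bound by ATF4, since several members moved together with the drugs below. ATF4 with a C/EBP partner binds a composite element that is often written TGATGCAA. RefSeq promoter windows on GRCh38.p14, from 250 bases before to 50 after the start of transcription, were found for 33 of the 38 genes. There was no entry for LARS1, VARS1, YARS1, AARS2 and VARS2. The 8 letters TGATGCAA were present on either strand in 6 of 16 cytosolic synthetase genes (37.5%), 0 of 14 mitochondrial ones and 0 of 3 scaffold genes. Over all 35116 windows of the same length, 304 held them (0.866%), a share per window and not per gene. All 6 were among the 10 genes with a window that belong to a list of 12 cytosolic synthetases often reported as ATF4 targets, and 0 of the 6 other cytosolic genes with a window had them. Each stretch below has 28 bases, 5′ to 3′ on the gene's own strand, with the match in capitals. TTGCATCA is TGATGCAA read on the opposite strand.
AARS1: tttctcgcagTTGCATCAgccaagttag
CARS1: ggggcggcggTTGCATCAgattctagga
IARS1: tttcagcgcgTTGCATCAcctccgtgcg
MARS1: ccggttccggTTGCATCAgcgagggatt
NARS1: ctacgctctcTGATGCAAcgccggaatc
TARS1: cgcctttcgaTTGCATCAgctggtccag
These stretches lie at chr16:70289676-70289703, minus strand (AARS1), and chr11:3057408-3057435, minus strand (CARS1). They lie at chr9:92293693-92293720, minus strand (IARS1), and chr12:57488054-57488081, plus strand (MARS1). The last of them lie at chr18:57621805-57621832, minus strand (NARS1), and chr5:33440957-33440984, plus strand (TARS1).

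The first matched base was at -187 from the start in AARS1, at -13 in IARS1, -4 in MARS1, -2 in CARS1, 3 in TARS1 and 15 in NARS1. Searched as TGATGNAA, which includes TGATGCAA, the windows of GARS1 (at -33) and of the mitochondrial YARS2 (at -197) also matched, for 7 of 16 cytosolic and 1 of 14 mitochondrial genes, against 1270 of all 35116 windows (3.62%). The windows of SARS1 and WARS1 did not hold these letters. A match is a run of letters and not a measured binding site. Of the 6 genes with TGATGCAA, AARS1 has its match farthest from the start, so its 250 bases before the start, chr16:70289507-70289756, minus strand, are shown whole, with the match in capitals.
AARS1 upstream: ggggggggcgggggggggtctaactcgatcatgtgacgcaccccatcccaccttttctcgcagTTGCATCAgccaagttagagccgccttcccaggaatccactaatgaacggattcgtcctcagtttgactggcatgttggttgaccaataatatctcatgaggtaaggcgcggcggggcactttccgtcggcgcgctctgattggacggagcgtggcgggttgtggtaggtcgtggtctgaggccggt

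HF in AAVS1 cells asks what the synthetase genes do when charging of proline tRNA is inhibited. Of the 37 tested genes 6 rose and 0 fell, where 1.54% of all 11078 tested genes changed. All 6 were cytosolic synthetases outside the multi-tRNA synthetase complex: CARS1, SARS1, GARS1, TARS1, AARS1 and WARS1. The median log2 change was 0.58 over the 19 cytosolic genes and -0.18 over the 15 tested mitochondrial genes, with a median of all genes near 0. The log2 changes of the 7 synthetases of the complex had a median of 0.27 with 0 past the threshold, and those of the 12 free cytosolic ones a median of 0.79. With replicates blocked, EPRS1 and MARS1, which belong to the complex, passed as well, as given below. In these bulk libraries, more of a transcript per cell and more cells holding it cannot be told apart.

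CARS1 (cysteine; GRCh38 chr11:3000922-3057613, minus strand) had the largest change of the set in this comparison among those past the threshold. It stood at 89.5, 97.8 and 134 CPM in the untreated AAVS1 libraries and at 272, 277 and 291 CPM with HF. The groups did not overlap, and the log2 change was 1.38 (SE 0.19, adjusted p = 3.34e-06, edgeR), or 2.61-fold. SARS1 (serine; chr1:109213918-109238169, plus strand) had 222, 152 and 236 CPM untreated and 532, 546 and 381 CPM with HF. Again all 3 treated libraries were above all 3 untreated ones, although the third was nearer to them than the others (1.26, SE 0.18, adjusted p = 4.99e-06).

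GARS1 (glycine; chr7:30594681-30634033, plus strand), which serves both the cytosol and mitochondria, went from 240.1, 214 and 299.9 CPM to 559, 479 and 501 CPM (1.03, SE 0.17, adjusted p = 5.35e-05). TARS1 (chr5:33440696-33469539, plus strand) went from 385, 393 and 399 CPM to 854, 933 and 672 CPM (1.06, SE 0.22, adjusted p = 0.00179). AARS1 (alanine; chr16:70252295-70289543, minus strand) went from 155, 139 and 139 CPM to 282, 270.01 and 306 CPM (0.99, SE 0.20, adjusted p = 0.00202). In these 3 genes the treated libraries lay above the untreated ones without overlap. WARS1 (tryptophan; chr14:100333788-100376805, minus strand) had 86.1, 52.4 and 76.4 CPM untreated and 129.6, 122 and 123 CPM with HF (0.82, SE 0.20, adjusted p = 0.0147). Its call rests on the library of AAVS1 untreated replicate 2, the lowest of the 6 for WARS1 and the one of the lowest GC slope: without it the change was 0.63 (adjusted p = 0.18). Without HF replicate 1 it was 0.79 (adjusted p = 0.0705). WARS1 shares 10.6% of its exon bases with other genes, and CARS1 and GARS1 share 2.8% and 2.38%. AARS1, SARS1 and TARS1 share none.

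**Figure D1:**
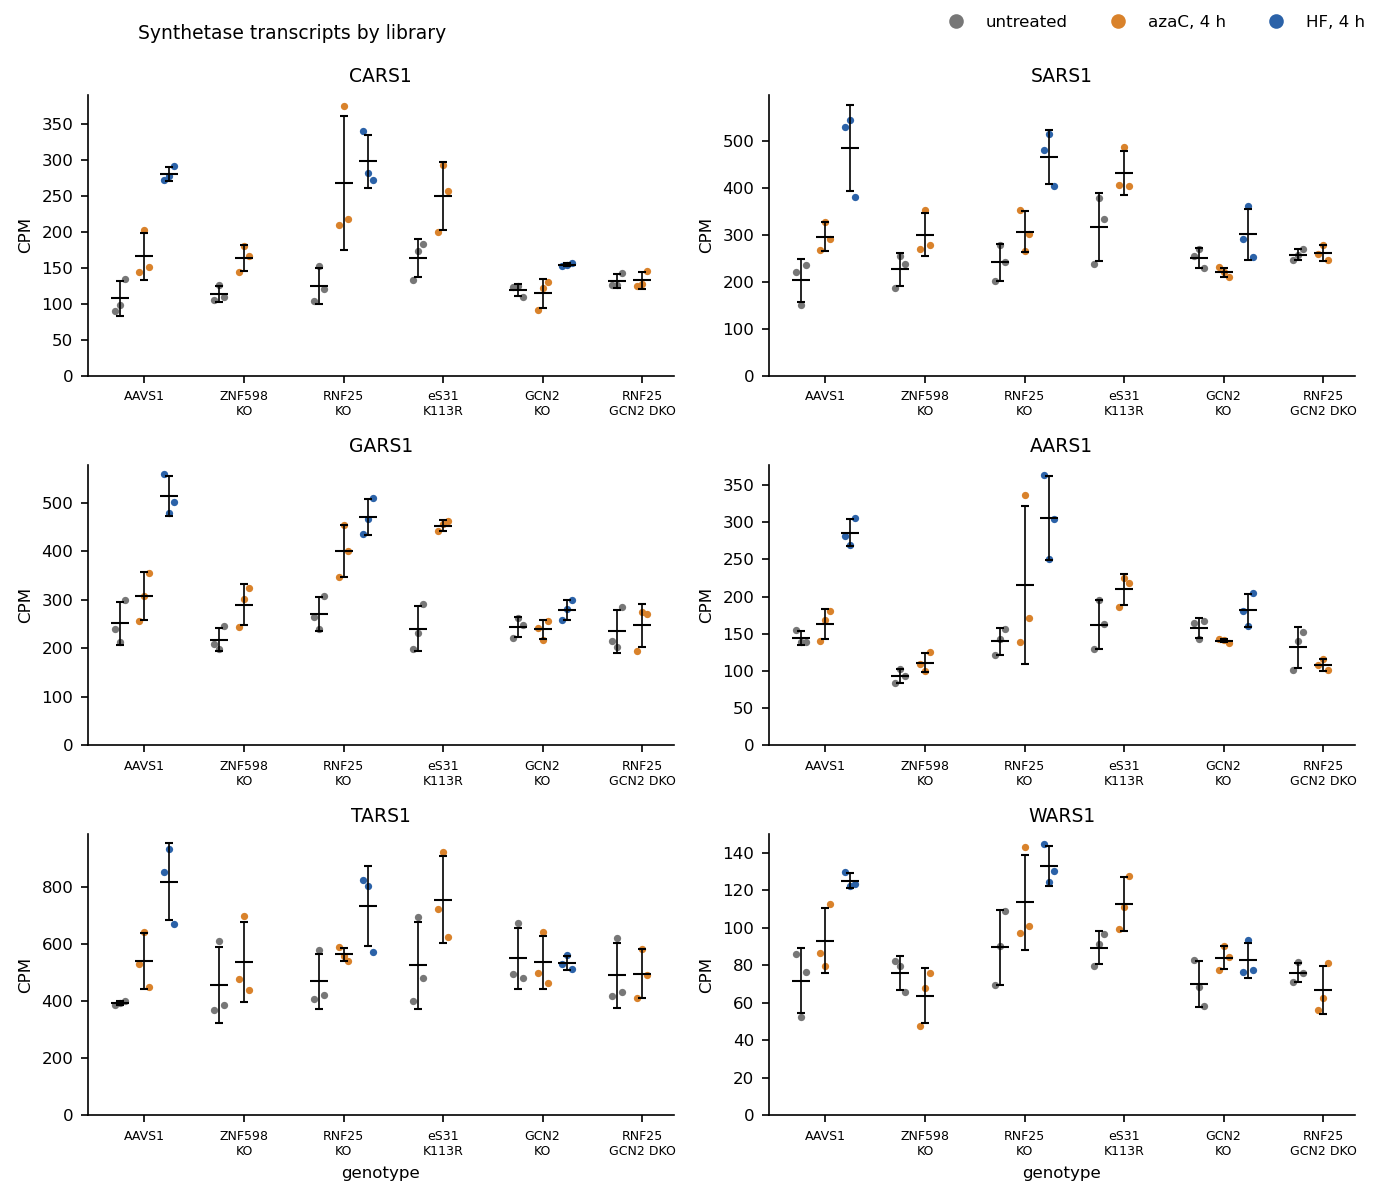
Level in CPM (y axes, linear from 0) of the 6 synthetase genes that passed a drug comparison, by genotype (x axes) and treatment (colour), with 1 point per library and the mean ± SD of 3 in black. With HF all AAVS1 and RNF25 KO points for CARS1, SARS1, GARS1 and AARS1 lie above their untreated points; CARS1 in GCN2 KO cells stayed between 152 and 157 CPM.

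The list of 12 cytosolic synthetases often reported as ATF4 targets held all 6 of these genes. With HF in AAVS1 cells its log2 changes had a median of 0.84, all 12 were positive, and 11 had an unadjusted p under 0.05. In 10 of the 12, every treated library was above every untreated one, where 7.29% of all tested genes showed this. The 7 other cytosolic genes (FARSA, FARSB, HARS1, KARS1, QARS1, RARS1 and VARS1) had a median of -0.05 with 0 past the threshold. The list was drawn up with earlier results of these data known, so its count is no independent evidence. EPRS1 (glutamate and proline; chr1:219968601-220046658, minus strand), the target of HF, had 176, 257 and 208 CPM untreated and 282, 385 and 248 CPM with HF. Those groups overlapped and the change of 0.51 did not pass (SE 0.22, adjusted p = 0.329). With replicates blocked, which the same-numbered libraries warrant here, 10 of 37 genes rose: the 6 above, EPRS1 (0.51, adjusted p = 0.0482), and MARS1 (methionine), NARS1 and YARS1 (tyrosine), at 0.90, 0.75 and 0.72 with adjusted p of 0.000488, 0.00199 and 0.001. MARS1, NARS1 and YARS1 are named after their values were seen. MARS1 shares 12.4% of its exon bases with genes on the opposite strand, among them the stress gene DDIT3.

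None of the mitochondrial genes passed with HF in AAVS1 cells. The largest change was in TARS2 (chr1:150487364-150507609, plus strand), at 2.58, 5.99 and 6.42 CPM untreated and 14.0, 20.3 and 9.76 CPM with HF. All treated libraries were above the untreated ones, on 3 to 12 and 18 to 32 counts, and the log2 change of 1.48 had SE 0.49 and adjusted p = 0.136. PARS2 (proline; chr1:54756898-54764514, minus strand), the mitochondrial counterpart of the enzyme that HF inhibits, had 1.72, 7.48 and 7.06 CPM untreated and 7.76, 1.90 and 5.14 CPM with HF. Those groups overlapped (-0.22, SE 0.68, adjusted p = 0.942), so no change in PARS2 was detectable at this depth. The 3 scaffold genes had a median change of -0.27 with 0 past the threshold.

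In RNF25 KO cells HF raised 4 of 37 genes, where 1.73% of all tested genes changed, and the 4 were again CARS1, AARS1, SARS1 and GARS1. CARS1 went from 103, 152 and 119.7 CPM to 339.8, 281 and 272 CPM (1.25, SE 0.19, adjusted p = 2.47e-05). AARS1 went from 121, 142 and 156 CPM to 363, 250.3 and 305 CPM (1.13, SE 0.20, adjusted p = 0.000366). For both genes the groups were clearly apart. SARS1 had 202, 279 and 243 CPM untreated and 481, 515 and 404 CPM with HF (0.95, SE 0.18, adjusted p = 0.000687). GARS1 had 263, 239 and 308 CPM untreated and 436, 466 and 509 CPM with HF (0.80, SE 0.17, adjusted p = 0.00268). The treated libraries were the higher ones in both. TARS1, with 0.65 (adjusted p = 0.126), and WARS1, with 0.57 (adjusted p = 0.146), did not pass here. The 12 genes of the ATF4 list had a median log2 change of 0.61, all positive, and in 7 of them every treated library was above every untreated one, as in 8.45% of all genes. The 7 other cytosolic genes had a median of -0.11 with 0 positive, and the mitochondrial genes a median of -0.09.

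With HF in GCN2 KO cells 0 of 37 genes passed in edgeR, where 1.24% of all genes changed. At an unadjusted p under 0.05 there was 1, the scaffold gene EEF1E1 (0.53, adjusted p = 0.169), named after its value was seen; 18.7% of its exon bases are shared with a read-through gene. Both DESeq2 and limma-voom passed 0, with 1 gene each below that p. CARS1 stood at 123, 125 and 109.7 CPM untreated and 152, 154 and 157 CPM with HF, a log2 change of 0.37 (SE 0.20, adjusted p = 0.536). The treated libraries were narrowly above the untreated ones. SARS1 had 254, 271 and 229.6 CPM untreated and 291, 361 and 253 CPM with HF (0.26, adjusted p = 0.705), with overlapping groups. AARS1, GARS1, TARS1, WARS1 and EPRS1 overlapped as well, EPRS1 with 169, 221 and 210.1 CPM untreated and 169, 224 and 209 CPM with HF. For the ATF4 list the median was 0.16, and in 1 of the 12 genes, CARS1, every treated library was above every untreated one, where 9.05% of all genes showed this.

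The difference between the HF responses was tested directly. For HF in GCN2 KO minus AAVS1 cells 0 of 37 genes passed in edgeR, where 0.334% of all genes did, and 11 had an unadjusted p under 0.05, of which 8 were cytosolic and lower in GCN2 KO. The nearest to the threshold were SARS1 at -0.999 (SE 0.25, adjusted p = 0.0655), CARS1 at -1.01 (SE 0.27, adjusted p = 0.113), TARS1 at -1.10 (SE 0.30, adjusted p = 0.116) and MARS1 at -1.31 (SE 0.36, adjusted p = 0.113). DESeq2 passed 5, with adjusted p from 0.013 to 0.0389, and limma-voom passed 0 with 12 at an unadjusted p under 0.05. The difference of the responses had a median of -0.56 over the cytosolic and 0.15 over the mitochondrial genes, and -0.81 over the ATF4 list, with 0 of 12 positive. For HF in RNF25 KO minus AAVS1 cells 0 of 37 passed (0% of all genes), with 2 below an unadjusted p of 0.05, and the counts were equal in DESeq2 and limma-voom. The 2 differences share the AAVS1 libraries.

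**Figure D2:**
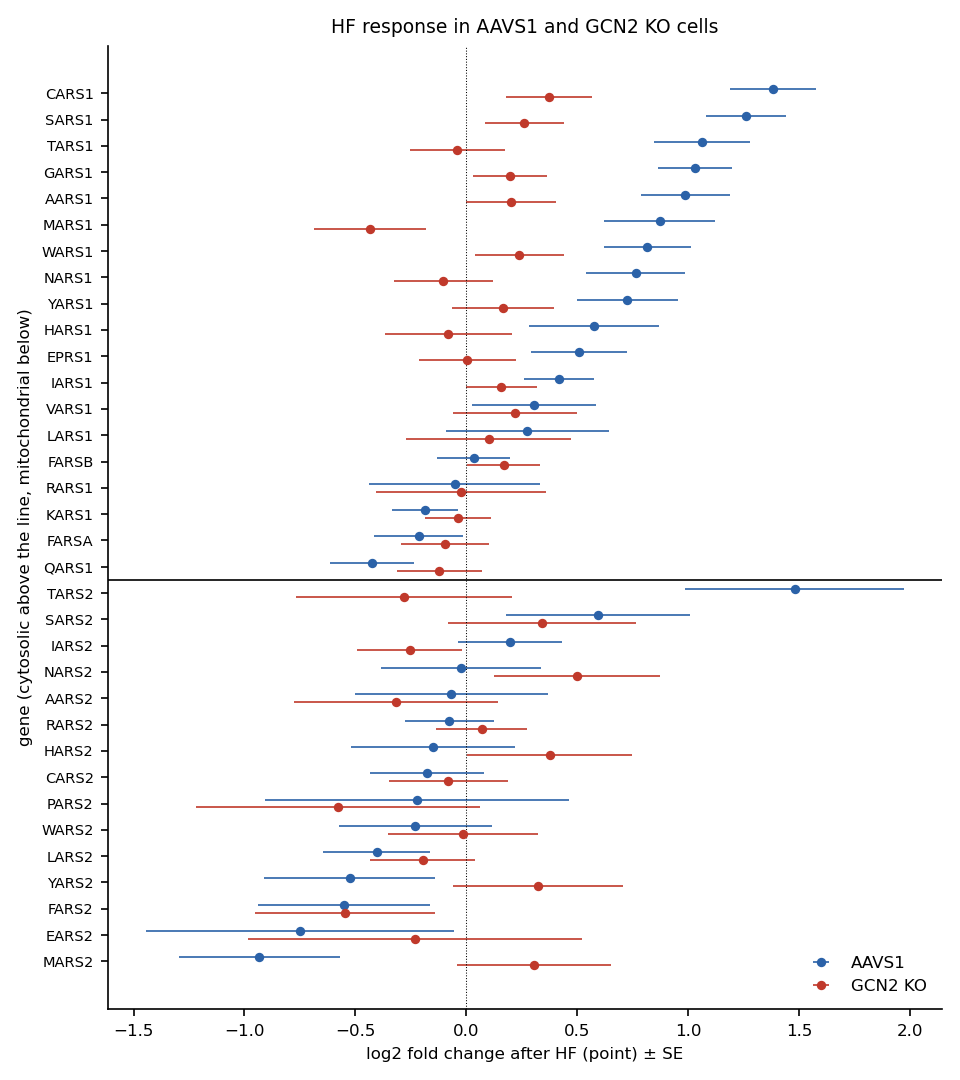
Log2 change with HF (x axis) of each tested synthetase gene (y axis, cytosolic above the line and mitochondrial below) in AAVS1 cells (blue) and GCN2 KO cells (red), as points with bars of 1 SE. The blue points of CARS1, SARS1, TARS1 and GARS1 lie at 1.03 to 1.38 and the red point of CARS1 at 0.37.

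Other genes of the pathway were read in the same comparisons. Of 25 integrated stress response markers, among them ATF4, ATF3, DDIT3, CHAC1, TRIB3, ASNS and PSAT1, 22 were tested. This list too was chosen with earlier results of these data known, so its counts are no independent evidence. With HF 20 of 22 rose in AAVS1 cells (median log2 change 2.20), 20 in RNF25 KO (2.11) and 4 in GCN2 KO (0.11). Of all tested genes 1.54, 1.73 and 1.24% changed in that order. In the difference of responses, GCN2 KO minus AAVS1, 14 of the 22 were lower (median -1.84), where 0.334% of all genes differed. Of 14 genes that act beside the synthetases on tRNA, such as the tRNA exporter XPOT and the elongation factors EEF1A1 and TUFM, 13 were tested. In the 9 comparisons of a drug with no drug, 1 of these passed in 1 comparison. XPOT rose with HF in RNF25 KO cells from 32.2, 34.2 and 34.3 CPM to 63.0, 61.1 and 56.5 CPM (0.84, SE 0.23, adjusted p = 0.0408). Its change was 0.29 in AAVS1 (adjusted p = 0.707) and -0.25 in GCN2 KO cells (adjusted p = 0.83).

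AzaC at 5 uM asks the same of a drug that damages RNA, in all 6 genotypes. Few synthetase genes passed: 1 in RNF25 KO, 1 in eS31 K113R and 0 in the other 4 genotypes, both of them higher with azaC. CARS1 rose in RNF25 KO cells (0.469% of all genes changed), from 103, 152 and 119.7 CPM to 209.9, 375 and 217 CPM. The azaC libraries were above the untreated ones, and replicate 2 was far above replicates 1 and 3 (1.10, SE 0.19, adjusted p = 0.00051). That library is the one of extreme GC slope, and without it the log2 change was 0.77 (adjusted p = 0.0691). Without it and AAVS1 untreated replicate 2 together the change was 0.77 with adjusted p = 0.0476, and with GC-corrected offsets, like that setting chosen after the data were seen, it was 1.06 (adjusted p = 0.000723). Fitted to these groups alone it was 1.12 (adjusted p = 0.105). In the same comparison AARS1 had 139, 337 and 171 CPM with azaC, with the same library high, and it did not pass.

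GARS1 rose in eS31 K113R cells (0.515% of all genes changed), from 199, 231 and 292 CPM to 441, 455 and 462 CPM, with no overlap (0.91, SE 0.17, adjusted p = 0.001). Only replicate 1 of these untreated libraries carries the name eS31 K113R in its title. With that untreated library alone the GARS1 change was 1.18. With replicates blocked TARS1 also rose there (0.53, adjusted p = 0.0476). In the same cells CARS1 had 133, 172 and 183 CPM untreated and 199.8, 293 and 256 CPM with azaC (0.62, adjusted p = 0.252). In AAVS1 cells CARS1 had 143, 202 and 151 CPM with azaC (0.63, adjusted p = 0.734), above its untreated libraries. In ZNF598 KO cells it went from 105, 126 and 109 CPM to 144, 179 and 166 CPM. Neither of these passed the threshold.

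Over the ATF4 list the median log2 change with azaC was 0.21 in AAVS1, 0.28 in ZNF598 KO, 0.35 in RNF25 KO, 0.41 in eS31 K113R, -0.05 in GCN2 KO and 0.02 in the DKO. Genes whose azaC libraries were all above the untreated ones numbered 3, 2, 3, 7, 0 and 0 of 12 in that order. Over all tested genes the shares were 4.43, 4.48, 5.98, 5.6, 4.96 and 4.14% in the same order. The eS31 K113R values use untreated libraries of which only replicate 1 carries that genotype name in its title. The mitochondrial genes had medians of -0.11 to 0.01, and 0 of 15 passed in any genotype. Of the mitochondrial members with the largest changes, SARS2 (serine; chr19:38915266-38930896, minus strand) had 10.5, 6.84 and 14.96 CPM untreated and 21.5, 30.1 and 14.6 CPM with azaC in RNF25 KO cells (1.05, SE 0.42, adjusted p = 0.4). PARS2 had 2.29, 4.87 and 3.84 CPM untreated and 6.50, 9.83 and 6.61 CPM with azaC in eS31 K113R cells (1.04, SE 0.70, adjusted p = 1). TARS2 had 6.54, 18.2 and 8.19 CPM with azaC in AAVS1 cells, narrowly above its untreated libraries (1.11, SE 0.50, adjusted p = 0.99). SARS2 overlapped between its groups while PARS2 did not, and SARS2 shares 46.2% of its exon bases with another gene on its strand.

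In the 4 genotypes with 0 genes passed in edgeR, the background was also low: 0.117% of all genes changed in AAVS1, 0.117% in ZNF598 KO, 0% in GCN2 KO and 0% in the DKO. The members at an unadjusted p under 0.05 numbered 6, 5, 1 and 0 in that order. DESeq2 passed 0 in each, with 6, 5, 1 and 1 at that p, and limma-voom passed 0, with 7, 4, 1 and 0. The integrated stress response markers that rose with azaC numbered 8 of 22 in AAVS1, 8 in ZNF598 KO, 20 in RNF25 KO, 18 in eS31 K113R, 0 in GCN2 KO and 0 in the DKO. Of all genes 0.469% changed in RNF25 KO and 0.515% in eS31 K113R.

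**Figure D3:**
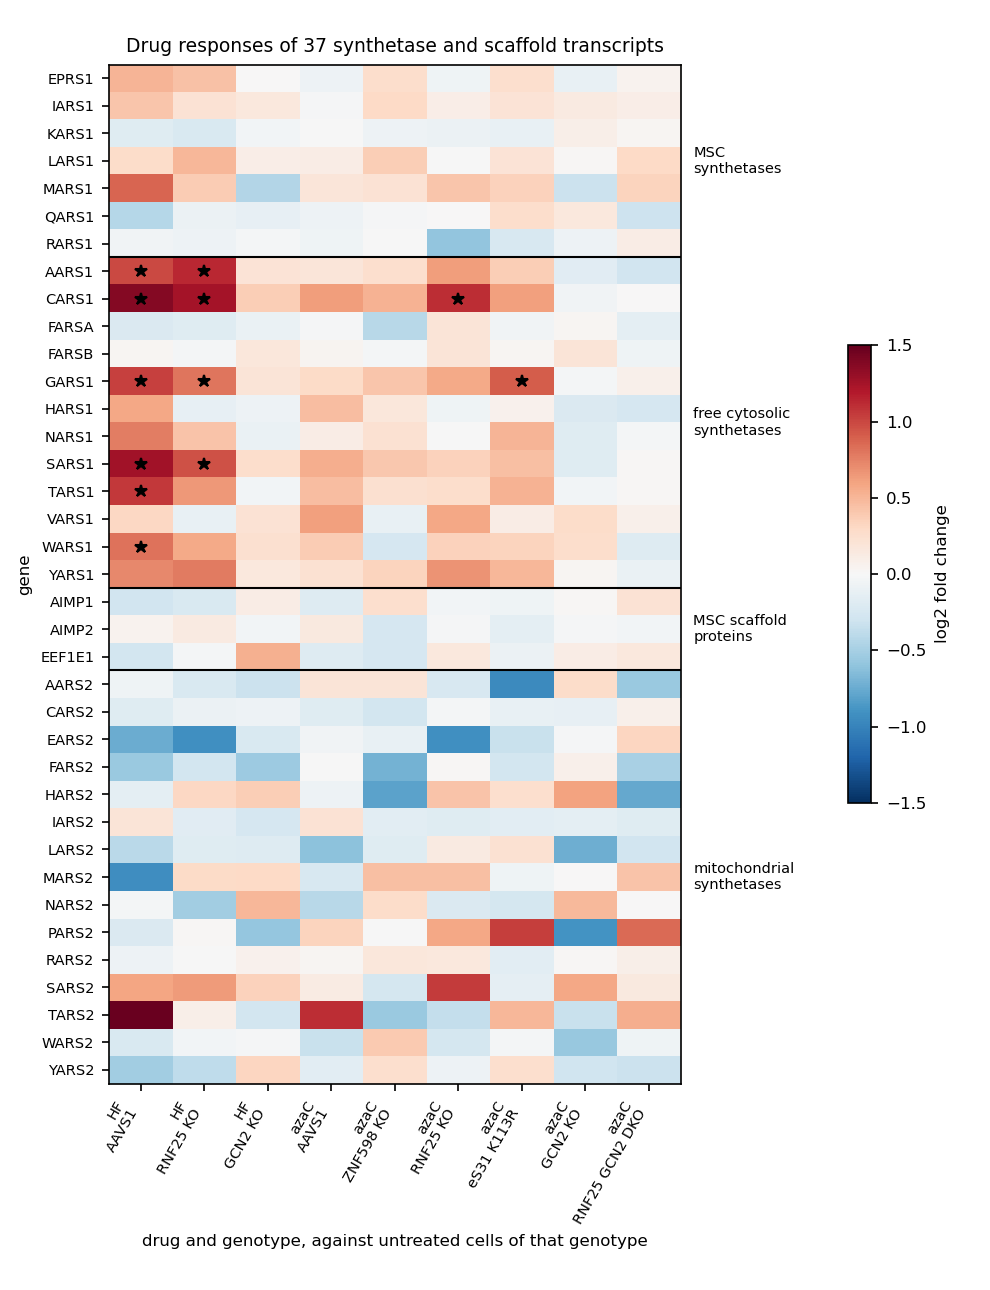
Log2 change of each tested gene (vertical, in blocks; MSC is the multi-tRNA synthetase complex) in the 9 comparisons of a drug with no drug (horizontal), blue for lower and red for higher, with a star where the adjusted p was under 0.05. The stars lie in the block of free cytosolic synthetases: 6 for HF in AAVS1, 4 for HF in RNF25 KO, and 1 each for azaC in RNF25 KO and eS31 K113R.

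The difference of azaC responses between genotypes was tested in 7 comparisons, some of which share libraries. In edgeR 0 of 37 genes passed in ZNF598 KO, RNF25 KO, eS31 K113R, GCN2 KO or the DKO, each minus AAVS1, where 0, 0, 0.00903, 0.00903 and 0.0451% of all genes did. In edgeR 0 also passed in the DKO minus RNF25 KO (0.117% of all genes) and the DKO minus GCN2 KO (0%). At an unadjusted p under 0.05 the counts were 2, 2, 2, 3, 3, 5 and 1 in that order. DESeq2 gave the same 7 counts with 0 passed, and limma-voom passed 0 with 3, 2, 2, 3, 5, 6 and 2. CARS1 differed by -1.09 in the DKO minus RNF25 KO (SE 0.27, adjusted p = 0.176). Some mitochondrial genes of few counts differed by more with larger errors, such as TARS2 at -1.67 in ZNF598 KO minus AAVS1 (SE 0.68, adjusted p = 1). In the DKO CARS1 had 126, 126 and 143 CPM untreated and 125, 127 and 146 CPM with azaC, which overlapped. For RNF25 KO minus AAVS1 CARS1 differed by 0.48 (SE 0.27, adjusted p = 1). In the same DKO minus RNF25 KO comparison 10 of the 22 stress markers were lower.

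AzaC and HF were also set side by side, at the doses and the single time used, which are not matched doses. In AAVS1 cells 4 of 37 genes were lower with azaC than with HF, where 0.993% of all genes differed. GARS1 differed by -0.74 (SE 0.17, adjusted p = 0.0115), at 257, 308 and 355 CPM with azaC against 559, 479 and 501 CPM with HF. AARS1 had 140.3, 168 and 180.1 CPM with azaC (-0.81, SE 0.20, adjusted p = 0.0321). SARS1, with 268, 329 and 292 CPM, differed by -0.71 (SE 0.18, adjusted p = 0.0337), and CARS1 by -0.75 (SE 0.19, adjusted p = 0.0348). For these 4 genes every azaC library was below every HF library. When any 1 of the 6 libraries was left out, 0 to 2 of the 4 calls were kept. With replicates blocked 8 passed, EPRS1, MARS1, NARS1 and TARS1 in addition.

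In RNF25 KO cells 0 of 37 differed between the drugs in edgeR, where 0.731% of all genes did, and 4 had an unadjusted p under 0.05. DESeq2 passed 1, SARS1 (-0.60, adjusted p = 0.0411), and limma-voom 0. This result depends on RNF25 KO azaC replicate 2, the library of extreme GC slope. Without it AARS1 was lower with azaC than with HF (-0.98, adjusted p = 0.00793, edgeR). With all libraries AARS1 differed by -0.50 (adjusted p = 0.233, edgeR). In GCN2 KO cells 0 of 37 differed, against 1.07% of all genes, with 4 at an unadjusted p under 0.05 in edgeR, DESeq2 and limma-voom alike, and 0 passed in the latter 2. The stress markers lower with azaC than with HF numbered 15 of 22 in AAVS1, 3 in RNF25 KO and 2 in GCN2 KO cells. Of all genes 0.993, 0.731 and 1.07% differed in that order.

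Across all 15 groups the balance between the sets was followed as the ratio of cytosolic to mitochondrial synthetase counts within a library, given as a description without a test. It was 8.71 ± 0.466 in untreated AAVS1 cells (SD, n = 3 here and below), 8.73 ± 1.41 in ZNF598 KO, 9.73 ± 1.01 in GCN2 KO, 10.5 ± 1.95 in eS31 K113R, 10.6 ± 1.09 in the DKO and 10.8 ± 1.34 in RNF25 KO. With azaC it was 10.4 ± 1.39 in AAVS1, 10.3 ± 1.15 in ZNF598 KO, 10.2 ± 1.03 in GCN2 KO, 13.8 ± 2.43 in eS31 K113R, 11.3 ± 0.879 in the DKO and 12.04 ± 0.508 in RNF25 KO. With HF it was 14.6 ± 0.689 in AAVS1, 15.3 ± 1.85 in RNF25 KO and 10.2 ± 0.648 in GCN2 KO. The HF libraries of AAVS1 cells lay between 14.1 and 15.4 and their untreated ones between 8.21 and 9.14. Those of GCN2 KO cells with HF lay between 9.45 and 10.7. Among the untreated eS31 K113R libraries, replicate 1 was at 8.61, and the others, which carry another genotype name in their titles, at 12.5 and 10.5.

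The same contrast is seen in mean log2 levels set to 0 in untreated AAVS1 cells. The ATF4 list stood at 0.85 ± 0.105 with HF in AAVS1, 0.78 ± 0.0503 in RNF25 KO and 0.23 ± 0.103 in GCN2 KO. It was at 0.25 ± 0.154 with azaC in AAVS1, 0.45 ± 0.0592 in RNF25 KO and 0.70 ± 0.0967 in eS31 K113R, of which the untreated libraries were already at 0.25 ± 0.243. Of those untreated libraries replicate 1 was at -0.03. The others, which carry another genotype name in their titles, were at 0.39 and 0.38. The mitochondrial genes kept group means of -0.15 to 0.02 over all 15 groups.

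**Figure D4:**
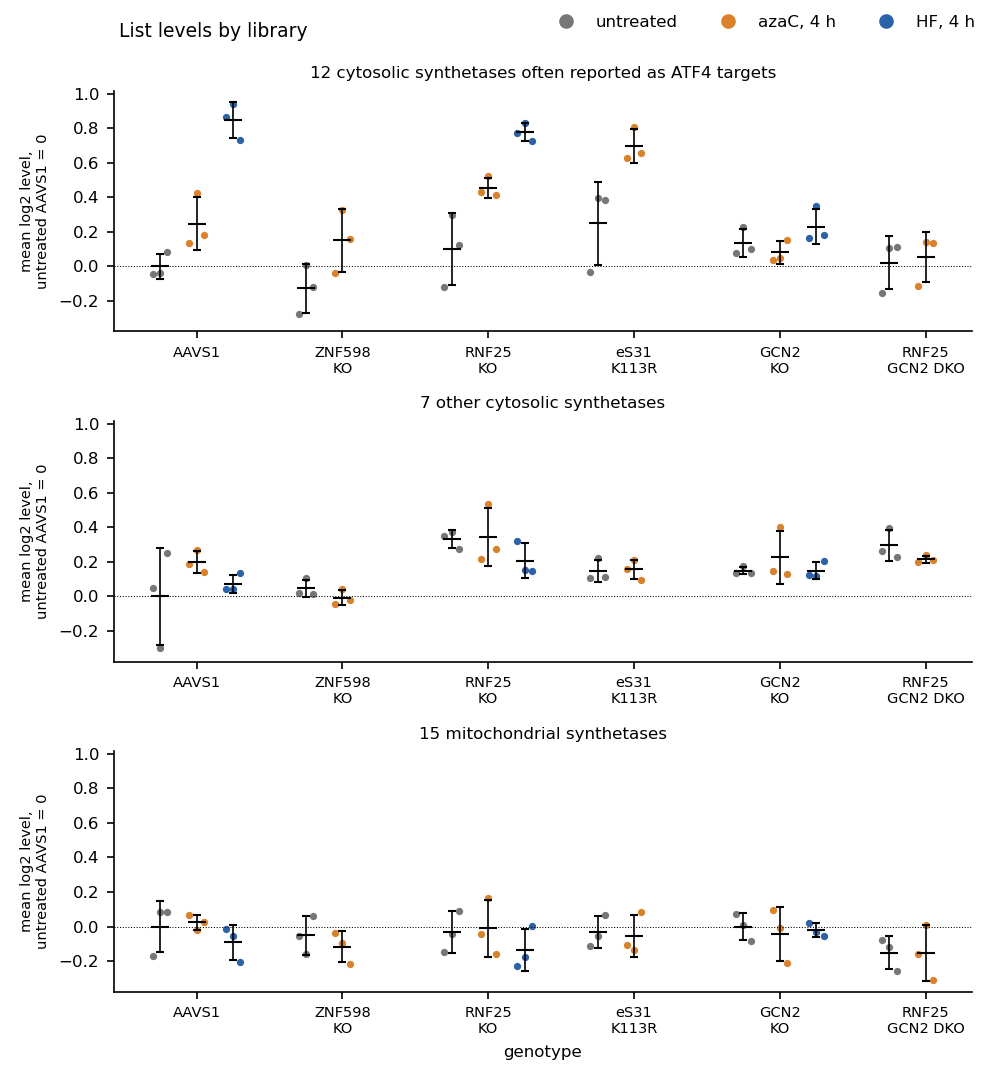
Mean log2 level of 3 lists of synthetase genes relative to untreated AAVS1 cells (y axes), by genotype (x axes) and treatment (colour), with 1 point per library and the mean ± SD of 3 in black. The ATF4-reported cytosolic genes reach 0.85 with HF in AAVS1 and 0.78 in RNF25 KO, and 0.23 in GCN2 KO; the group means of the mitochondrial genes stay between -0.15 and 0.02.

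Without any drug, each line was compared with AAVS1 cells. The labels do not say whether a line was 1 clone, so differences of genotype and of clone cannot be told apart. Among the genes past the threshold, the largest change was in KARS1, the lysyl-tRNA synthetase (chr16:75627474-75648643, minus strand), 1 of the 7 synthetases of the complex and also the source of the mitochondrial enzyme. It stood at 245, 309 and 292 CPM in AAVS1 cells and at 543, 596 and 578 CPM in RNF25 KO (1.02, SE 0.15, adjusted p = 5.94e-06), or 2.03-fold, where 1.62% of all genes differed. In the DKO it had 460.4, 539 and 519 CPM (0.84, SE 0.15, adjusted p = 0.000205), where 1.42% of all genes differed. These 2 comparisons share the AAVS1 libraries. The labels used here do not say whether the DKO was made from the RNF25 KO line, so the 2 lines may not be independent. Between them 0% of all tested genes differed. Both lines without RNF25 were above AAVS1 with no overlap. They differed from each other by -0.18 (DKO minus RNF25 KO, SE 0.14, adjusted p = 1), where each DKO library was slightly below each RNF25 KO library. Fitted to the compared groups alone, the DKO difference from AAVS1 was 0.85 (adjusted p = 0.116). KARS1 was the 1 gene of 37 that passed in each of these comparisons with AAVS1. It shares 4.33% of its exon bases with other genes.

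With drugs KARS1 was again at higher levels in the lines without RNF25 than in AAVS1 cells. With azaC it had 452, 645 and 518 CPM in RNF25 KO and 443, 565 and 542 CPM in the DKO, against 246, 325 and 272 CPM in AAVS1 cells. With HF it had 504, 439 and 518 CPM in RNF25 KO cells against 218, 255 and 271 CPM in AAVS1 and 221, 212 and 255 CPM in GCN2 KO. These levels between treated genotypes were not tested. In untreated ZNF598 KO cells KARS1 was at 184, 217 and 200.3 CPM, below AAVS1 (-0.50, SE 0.15, adjusted p = 0.11; with replicates blocked -0.49, adjusted p = 0.0278). AARS1 was also below AAVS1 there, at 83.1, 102 and 93.2 CPM against 155, 139 and 139 CPM. It did not pass in edgeR and is named here after its values were seen. KARS1 and AARS1 lie on the same chromosome, at chr16:75627474-75648643 and chr16:70252295-70289543. Whether the genes around them were also lower in ZNF598 KO cells was not tested.

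**Figure D5:**
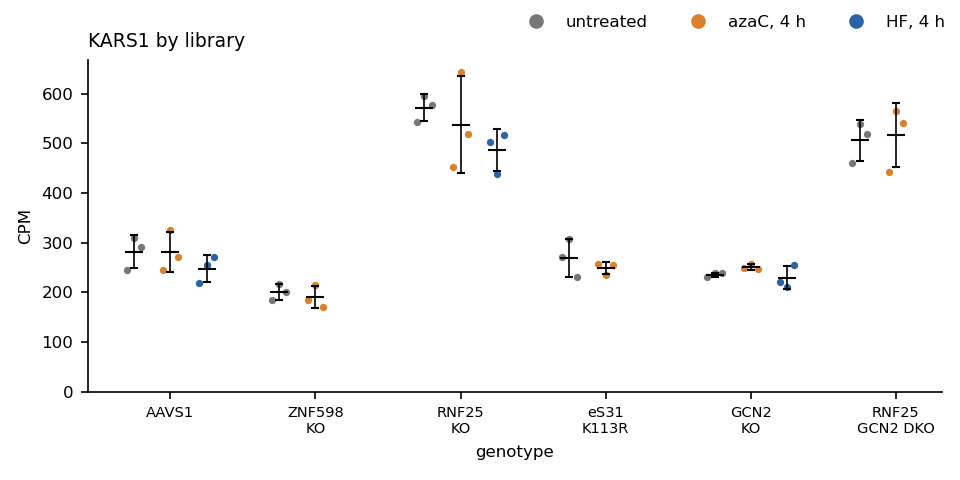
KARS1 level in CPM (y axis, from 0) in the 6 genotypes (x axis) without drug, with azaC and with HF (colour), with 1 point per library and the mean ± SD of 3 in black. The untreated RNF25 KO and DKO libraries lie between 460.4 and 596 CPM, above all untreated AAVS1 libraries, which reach 309 CPM.

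The other untreated change was in SARS1 in eS31 K113R cells, where 2.87% of all genes differed. It had 238, 378 and 335 CPM there and 222, 152 and 236 CPM in AAVS1 (0.65, SE 0.18, adjusted p = 0.0346), with 1 library of eS31 K113R near the highest of AAVS1. Without AAVS1 replicate 2, the library of lowest GC slope, it was 0.47 (adjusted p = 0.277). Without eS31 K113R replicate 2 it was 0.50 (adjusted p = 0.267) and without replicate 3 it was 0.60 (adjusted p = 0.128). Those last 2 libraries carry another genotype name in their titles, and with replicate 1 alone the difference was 0.23 (adjusted p = 0.834). With replicates blocked CARS1 also passed there (0.60, adjusted p = 0.0255). In edgeR 0 of 37 passed in ZNF598 KO (0.93% of all genes), in GCN2 KO (1.05%) and between the DKO and RNF25 KO (0%), with 4, 1 and 0 at an unadjusted p under 0.05. DESeq2 passed 0 in these 3, with 3, 2 and 0 at that p, and limma-voom passed 0, with 5, 2 and 0. None of the mitochondrial genes passed in an untreated comparison.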

How the data were processed

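The values deposited by the authors are raw counts per gene for 45 libraries, 15 groups of 3. Per the submitters' processing notes, STAR 2.7.10b, HTSeq 0.9.1 and the build GRCh38 were used; per the labels' protocols the polyA libraries were made with CORALL mRNA-Seq V2. Not given in the sources used here are the annotation release, the strand setting and whether molecular identifiers were used, so reads of overlapping opposite-strand genes may not have been told apart. Untreated eS31 K113R replicates 2 and 3 are titled eS32_K223R and were placed by their described column name.

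From the deposited counts, edgeR 4.0.16 (R 4.3.3, limma 3.58.1) fitted quasi-likelihood models with TMM scaling to all 15 groups, leaving 30 residual degrees of freedom. Low-count genes were removed with filterByExpr (minimum count 10), which left 11078 of 60676 genes. All 27 comparisons used Benjamini-Hochberg adjustment over these genes with a threshold of 0.05 ("rose", "fell" and "passed" refer to it), and a change is on the log2 scale with an SE from the F statistic. CPM used TMM-scaled library sizes. None of 45 within-group pairs was a copy (chi-square divided by its degrees of freedom at least 2.49). All 45 columns were used, and 2862 table rows without a symbol were kept as genes. Positions come from GENCODE v29 and promoter sequences from RefSeq on GRCh38.p14.

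Members and lists were chosen with earlier results of these data known. Values per library are given for members that passed a drug response, a response difference or an azaC-to-HF comparison, EPRS1, PARS2, the 3 cytosolic and 3 mitochondrial members with the largest change in a drug response, and members that passed an untreated comparison. XPOT, EIF2AK4, ZNF598 and RNF25 are checks, and the other genes are summarised.

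The replicate numbers come from the labels, which say nothing of what a number shares. Same-numbered libraries deviated together (all 3 correlations over 0.1) in azaC in AAVS1, ZNF598 KO, eS31 K113R and the DKO, in HF and azaC minus HF in AAVS1, and in all 6 untreated comparisons. Over 315 same-numbered pairs 229 correlations exceeded 0.1 (median 0.15). Alternatives were DESeq2 1.42.0, limma-voom, no filter, RLE scaling, a fit to the groups compared, a replicate block, and leaving out each library; 2 on GC content were chosen after the data were seen.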

Additional observations from a re-analysis of the deposited data

How the results depend on the processing

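Of 733 counts and medians recomputed under the alternatives, 66 moved, 26 of them among 308 medians. For single genes 0 calls reversed, which leaves out sign changes of genes that passed in neither run. CARS1, SARS1, GARS1, TARS1 and AARS1 with HF in AAVS1, the 4 calls with HF in RNF25 KO, GARS1 with azaC in eS31 K113R and KARS1 in RNF25 KO passed in every alternative run. WARS1 with HF in AAVS1 did not pass with no filter (adjusted p = 0.0535), fitted to the compared groups (0.241) or without the 2 libraries of extreme GC slope (0.137). The cause of these moves was not tested. Depth limits the genes of few counts, such as EARS2, PARS2 and TARS2, whose highest library held 24, 36 and 36 counts.

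Counts of genes past the threshold moved as follows. With the replicate block they were 3 for azaC in RNF25 KO, 2 in eS31 K113R, 10 for HF in AAVS1, 1 for the azaC response of the DKO minus RNF25 KO, 5 for the HF response of GCN2 KO minus AAVS1, 8 and 1 for azaC minus HF in AAVS1 and RNF25 KO, and 1 and 2 for untreated ZNF598 KO and eS31 K113R. With HF in RNF25 KO the block gave 6 in place of 4, adding TARS1 (0.66, adjusted p = 0.00168) and YARS1 (0.81, adjusted p = 0.000203), and DESeq2 and no filter gave 5. The correlations did not show pairing for the drug responses of RNF25 KO or GCN2 KO cells, nor for any difference of responses or for azaC minus HF in those cells. Fitted to the groups compared, the counts were 0 for azaC in RNF25 KO, 1 for the HF response of GCN2 KO minus AAVS1, and 0 for untreated eS31 K113R and the DKO. With no filter they were 2 for that HF response, 2 for azaC minus HF in AAVS1 and 0 for untreated eS31 K113R. DESeq2 gave 5 for that HF response and 1 for azaC minus HF in RNF25 KO. GC-corrected offsets gave 1 for the HF response. Without the libraries of extreme GC slope there were 1 for azaC minus HF in RNF25 KO and 0 for untreated eS31 K113R, and with 1 library of untreated eS31 K113R there were 0.

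Median changes that moved were those of the mitochondrial genes with azaC in ZNF598 KO (0.11, limma-voom), and of the cytosolic genes with azaC in eS31 K113R (0.50, 1 untreated library), HF in AAVS1 (0.74, limma-voom), HF in GCN2 KO (0.0303, GC-corrected) and the HF response of GCN2 KO minus AAVS1 (-0.47, without the libraries of extreme GC slope).

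Leaving out 1 library at a time, the cytosolic median ran from 0.071 to 0.33 with azaC in ZNF598 KO, 0.15 to 0.36 in RNF25 KO and -0.12 to 0.0155 in GCN2 KO, from 0.57 to 0.72 with HF in AAVS1, 0.30 to 0.56 in RNF25 KO and -0.0191 to 0.12 in GCN2 KO, from -0.64 to -0.46 for the HF response of GCN2 KO minus AAVS1 and from -0.53 to -0.38 for azaC minus HF in AAVS1. The mitochondrial median ran from -0.19 to 0.0064 with azaC in ZNF598 KO, -0.11 to 0.16 in RNF25 KO, -0.20 to 0.0418 in eS31 K113R, -0.15 to 0.0636 in GCN2 KO and -0.16 to 0.0545 in the DKO, from -0.33 to -0.0914 with HF in AAVS1, -0.18 to 0.0412 in RNF25 KO and -0.0881 to 0.11 in GCN2 KO, and from 0.0756 to 0.30 for that HF response. Counts ran from 0 to 2 for azaC in RNF25 KO, for that HF response, for azaC minus HF in AAVS1 and for untreated eS31 K113R, and from 0 to 1 for the DKO minus RNF25 KO and for azaC minus HF in RNF25 KO.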
